A study of Sus scrofa with 48 samples.

Results

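The proteasome genes, which encode the constitutive subunits of the proteasome and the factors that assemble it, were followed in the perirenal adipose tissue of pigs fed 1 of 2 diets. The members were 38 genes, found as all probes whose gene name in the array files begins with PSMA, PSMB, PSMC, PSMD, PSMF or PSMG, apart from PSMB8, PSMB9 and PSMB10, the inducible immune subunits, and PSMC3IP, which is not a proteasome gene. They are 38 of 45222 distinct gene names on the array, and had 94 probes in all. For each gene 1 probe was taken, the one whose level averaged over all pigs was highest. The core class held 12 genes, the cap class 17, the assembly class 7, and PSMB11 and PSMF1 stood outside these classes. PSMA1, PSMA7 and PSMA8 had no probe under those names and were not analysed here.

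The 48 pigs were castrated males of the Large White breed, aged 132 days per the labels, with 12 pigs in each of 4 groups and 1 array for each pig. They came from divergent lines bred for low or for high residual feed intake (RFI), where RFI is the part of feed intake that growth and maintenance do not account for and a low value means better feed efficiency. In each line, one group received a high-fat, high-fiber (HF) diet and the other a low-fat, low-fiber (LF) diet, in which starch was the main energy source. The comparisons address how the 2 diets and the 2 lines differ in the transcripts of this fat depot. Each line is a single selected population, and the tissue was taken whole, so that fewer cells of a type and less RNA per cell cannot be told apart.

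The proteasome is the large protease of the cytosol and nucleus that degrades proteins tagged with ubiquitin. Its core particle is a barrel of stacked rings, in which alpha subunits form the gate and beta subunits form the chamber that holds the active sites. A regulatory cap sits on the end of the barrel, with a base that includes a ring of ATPases, which unfold the substrate, and a lid that removes ubiquitin chains. Dedicated chaperones, the assembly factors, bind immature subunits and leave the finished particle. In adipocytes, as in other cells, this pathway sets the turnover of enzymes and transcription factors.

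The arrays measured these transcripts with designed probes of 60 bases, and some of those behind the results follow here. PSMA5, PSMB1, PSMC2 and PSMD8 are shown as examples from the alpha ring, beta ring, ATPase ring and lid, and PSMD14 as the gene with the largest diet difference. The PSMD14 probe shown is not its brightest one, from which its values below are taken, but one with a sequence of its own that gave a difference of -0.46. PSMB1 and PSMD8 were picked for display after their values were seen. The pairs for PSMD12 and PSMD1 overlap each other, and the capitals mark the bases that both probes of a pair hold, 14 for PSMD12 and 25 for PSMD1. Lower case in all other positions marks bases that were not shared within a pair.
PSMA5 probe A_72_P376623: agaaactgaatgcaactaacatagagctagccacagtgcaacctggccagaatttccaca
PSMB1 probe O8774: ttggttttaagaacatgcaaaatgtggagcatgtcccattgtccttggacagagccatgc
PSMC2 probe A_72_P066301: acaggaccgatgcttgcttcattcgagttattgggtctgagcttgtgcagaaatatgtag
PSMD8 probe O8698: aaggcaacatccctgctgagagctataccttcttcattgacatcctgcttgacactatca
PSMD14 probe A_72_P290329: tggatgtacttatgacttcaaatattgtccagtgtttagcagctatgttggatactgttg
PSMD12 probe A_72_P371733: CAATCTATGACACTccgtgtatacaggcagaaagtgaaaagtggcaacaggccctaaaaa
PSMD12 probe O4307: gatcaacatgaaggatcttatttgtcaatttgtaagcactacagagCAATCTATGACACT
PSMD1 probe A_72_P613951: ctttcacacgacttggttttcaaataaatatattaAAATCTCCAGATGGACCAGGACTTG
PSMD1 probe A_72_P189146: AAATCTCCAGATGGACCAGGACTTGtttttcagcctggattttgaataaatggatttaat

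A level is log2 of the median spot intensity minus the median of its array, so that 0 is the middle of all probes on that array. Levels are compared between pigs for the same probe. Between probes, mean levels served only to pick the brightest probe of a gene and to mark dimmer ones. A probe was tested when it was well above background on at least 24 of the 48 arrays, and 43355 probes were. The median signal of an array lay between 115 and 178 intensity units over a background of 23 to 33, no probe was saturated on any array, and the number of arrays limits the precision. Diet (HF minus LF), line (low RFI minus high RFI) and their interaction were estimated with limma, and a gene was called at a raw p under 0.01, a fold change over 1.1 and a Benjamini-Hochberg (BH) adjusted p over all tested probes under 0.08. The arrays of 3 LF pigs, pigs 3 and 11 of the high RFI line and pig 11 of the low RFI line, correlated least with their own group (median r of 0.976 to 0.980, against 0.984 to 0.990 for the others). Without these 3 arrays, 26 proteasome genes were called for diet in place of 24.

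Pigs fed the HF diet had lower levels of most proteasome transcripts than pigs fed the LF diet. Of the 38 genes, 37 were tested, 36 of these had a negative diet difference, and 24 (64.9%) were called lower in HF pigs, whereas 0 were called higher. Among the 9018 genes with a recognised symbol, each with 1 tested probe, 18.3% were called lower and 5.98% higher. The median diet difference was -0.18 over the proteasome genes and -0.05 over all 9018 genes. Core, cap and assembly genes had like medians, of -0.19, -0.20 and -0.18, and differences between the classes were not tested.

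**Figure D1:**
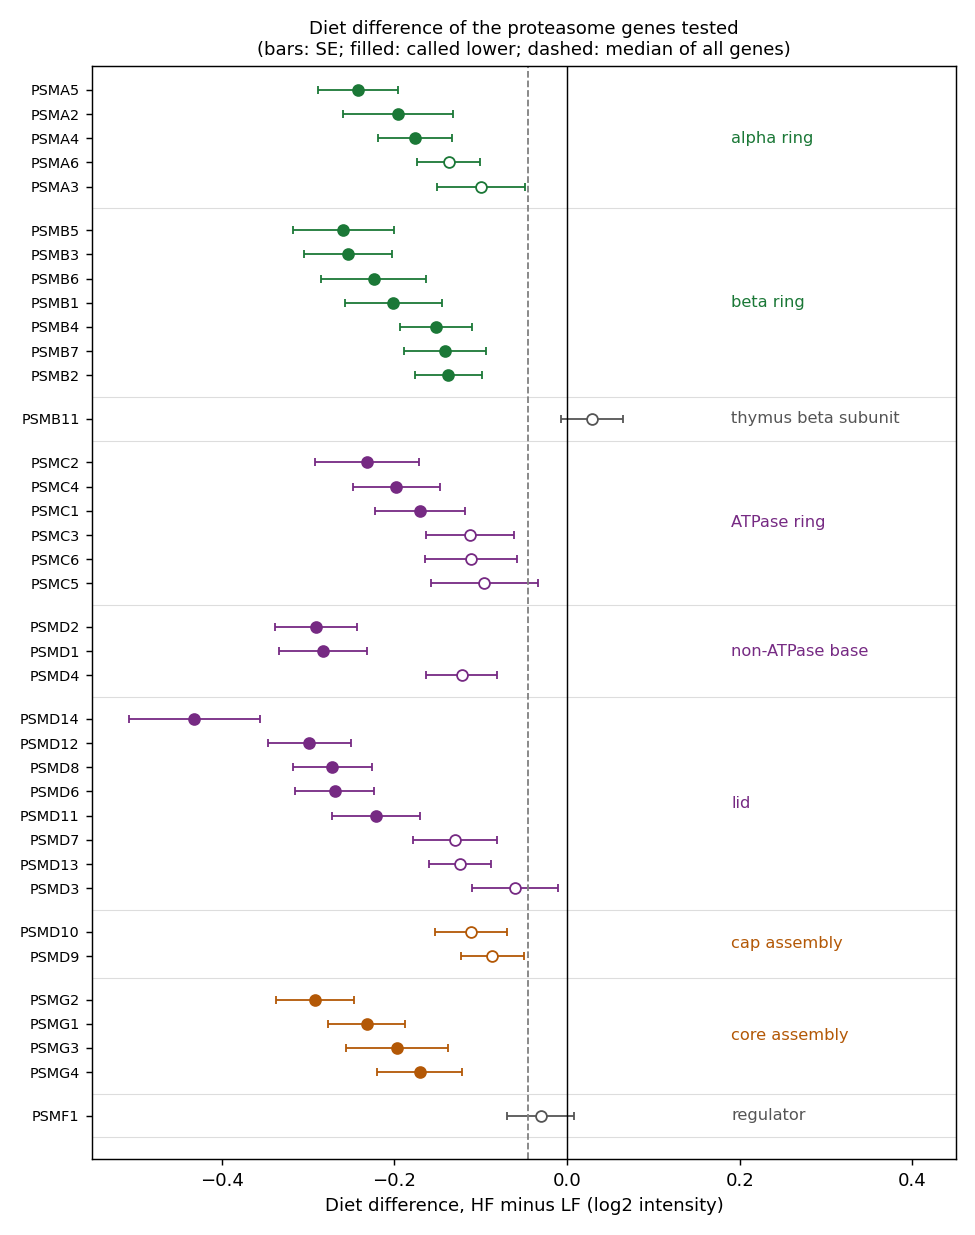
Diet difference (HF minus LF, log2 intensity, x axis) of the 37 proteasome genes tested, grouped by place in the complex, with the standard error as bars and filled points for genes called lower. PSMD14 lies farthest to the left at -0.43, PSMB11 alone lies to the right of 0, and the dashed line is the median of all genes at -0.05.

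These differences are relative to the middle of each array, and other scalings changed how many genes were called. Quantile normalization left 14 of the 37 proteasome genes called lower and centring on the spike-in control probes left 8, and both left 0 called higher. Of all genes, 12.6% were called lower with quantile normalization and 5.16% with spike-in centring. Spike-in centring moved every diet difference by 0.11, so that the median of all genes became 0.06, and the share of lower genes among all diet calls went from 75.4% to 21.8% (57.8% with quantile normalization). With spike-in centring 31 of the 37 genes still had a negative difference, and PSMA3, PSMC5, PSMD3, PSMD9, PSMF1 and PSMB11 a positive one. Relative to the median of all genes, the proteasome median was -0.13 with array median centring, a value that spike-in centring cannot change, and -0.10 with quantile normalization.

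The core genes were lower in HF pigs throughout, with 10 of 12 called. In the mean over the core genes, each taken relative to its own mean over all pigs, HF pigs lay at -0.09 ± 0.12 (SD, n = 24) and LF pigs at 0.09 ± 0.12 (SD, n = 24). The HF pigs ranged from -0.39 through a median of -0.09 to 0.16, and the LF pigs from -0.17 through 0.08 to 0.31. The diets overlapped, and 23 of 24 HF pigs were below the LF mean.

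In the alpha ring, which gates the barrel, 3 of 5 genes were called lower. PSMA5 had levels from 4.68 to 5.39 (median 5.03) in HF pigs and from 5.02 to 5.50 (median 5.27) in LF pigs. Its difference was -0.24 (SE 0.05, BH p = 0.000134), or 1.18-fold lower, and 22 of 24 HF pigs lay under the LF mean. PSMA2 ranged from 1.22 to 2.08 (median 1.76) in HF pigs and from 1.51 to 2.35 (median 2.01) in LF pigs. The ranges of PSMA2 overlapped over most of their length, and its difference was -0.20 (SE 0.06, BH p = 0.018). PSMA4 had a difference of -0.18 (SE 0.04, BH p = 0.00161), with levels of 4.62 ± 0.17 in HF pigs and 4.79 ± 0.13 in LF pigs (SD, n = 24 each). PSMA6 and PSMA3 were not called. PSMA6, at -0.14 (BH p = 0.00351), passed both p thresholds and missed the fold threshold. PSMA3 was at -0.10 (BH p = 0.136) on its 1 probe, whose mean level of -0.80 lay below the array median. Whether that probe reads the strand of the PSMA3 transcript was not tested, so its value may not describe PSMA3.

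In the beta ring, 7 of 7 genes were called lower, the catalytic subunits among them. PSMB5, which carries the chymotrypsin-like site, had levels from 4.14 to 4.90 (median 4.55) in HF pigs and from 4.40 to 5.33 (median 4.81) in LF pigs. Its difference was -0.26 (SE 0.06, BH p = 0.000823), with 22 of 24 HF pigs below the LF mean. PSMB3, a subunit without an active site, went from 2.15 to 2.79 (median 2.57) in HF pigs and from 2.43 to 3.30 (median 2.76) in LF pigs. The difference of PSMB3 was -0.25 (SE 0.05, BH p = 0.000213), and 11 LF pigs lay above every HF pig. PSMB6, with the caspase-like site, differed by -0.22 (SE 0.06, BH p = 0.00466). The other 4, PSMB1, PSMB2, PSMB4 and PSMB7, were between -0.20 and -0.14, and PSMB7 carries the trypsin-like site. PSMB2, at -0.14, lay just inside the fold threshold.

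PSMB11, the beta subunit known from thymic epithelium, was the 1 member with a positive difference. It lay near the array median in both diets, at -0.06 ± 0.11 in HF pigs and -0.09 ± 0.12 in LF pigs (SD, n = 24 each), and its difference of 0.03 (SE 0.04, BH p = 0.571) was not called.

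**Figure D2:**
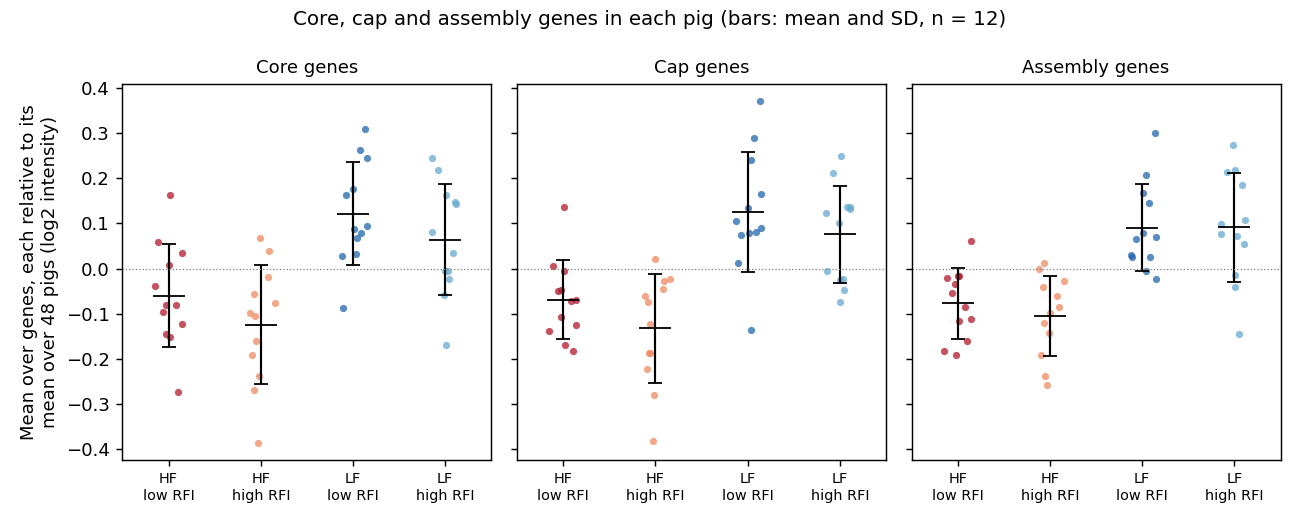
Mean level of the core, cap and assembly genes in each pig (y axis, log2 intensity, each gene relative to its mean over 48 pigs) by diet and line, with the group mean and SD (n = 12). In each panel both HF groups have a mean below 0 and both LF groups a mean above 0, and single pigs of the 2 diets overlap.

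The cap genes were lower in HF pigs in 17 of 17 cases, and 10 were called. Over the cap genes, HF pigs lay at -0.10 ± 0.11 and LF pigs at 0.10 ± 0.12 (SD, n = 24 each). The HF range ran from -0.38 through a median of -0.07 to 0.14 and the LF range from -0.14 through 0.10 to 0.37, so that the diets overlapped as in the core.

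Among the cap subunits that are not ATPases, PSMD14 had the largest diet difference of all the members. PSMD14 is the metalloprotease of the lid that cuts ubiquitin chains from the substrate. Its level in HF pigs was 4.02 to 4.76 (median 4.19) in the low RFI line and 3.62 to 4.96 (median 4.23) in the high RFI line. In LF pigs the corresponding values were 4.33 to 4.93 (median 4.69) and 4.25 to 5.11 (median 4.71). The difference of -0.43 (SE 0.08, BH p = 3.9e-05) made it 1.35-fold lower in HF pigs. Of the 24 HF pigs, 15 lay below every LF pig, whereas 1 LF pig lay above every HF pig.

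PSMD12, a scaffold subunit of the lid, had levels from 2.22 to 2.98 (median 2.66) in HF pigs and from 2.71 to 3.24 (median 2.93) in LF pigs. It differed by -0.30 (SE 0.05, BH p = 1.19e-05), and 16 HF pigs lay below every LF pig. PSMD2, the base subunit at which ubiquitin receptors dock, went from 5.91 to 6.60 (median 6.28) in HF pigs and from 6.25 to 6.86 (median 6.54) in LF pigs. Its difference was -0.29 (SE 0.05, BH p = 1.25e-05), with 10 HF pigs below all LF pigs and 10 LF pigs above all HF pigs. PSMD1, PSMD8, PSMD6 and PSMD11 were called too, at -0.28, -0.27, -0.27 and -0.22, and for PSMD8 the LF mean exceeded the level of every one of the 24 HF pigs.

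**Figure D3:**
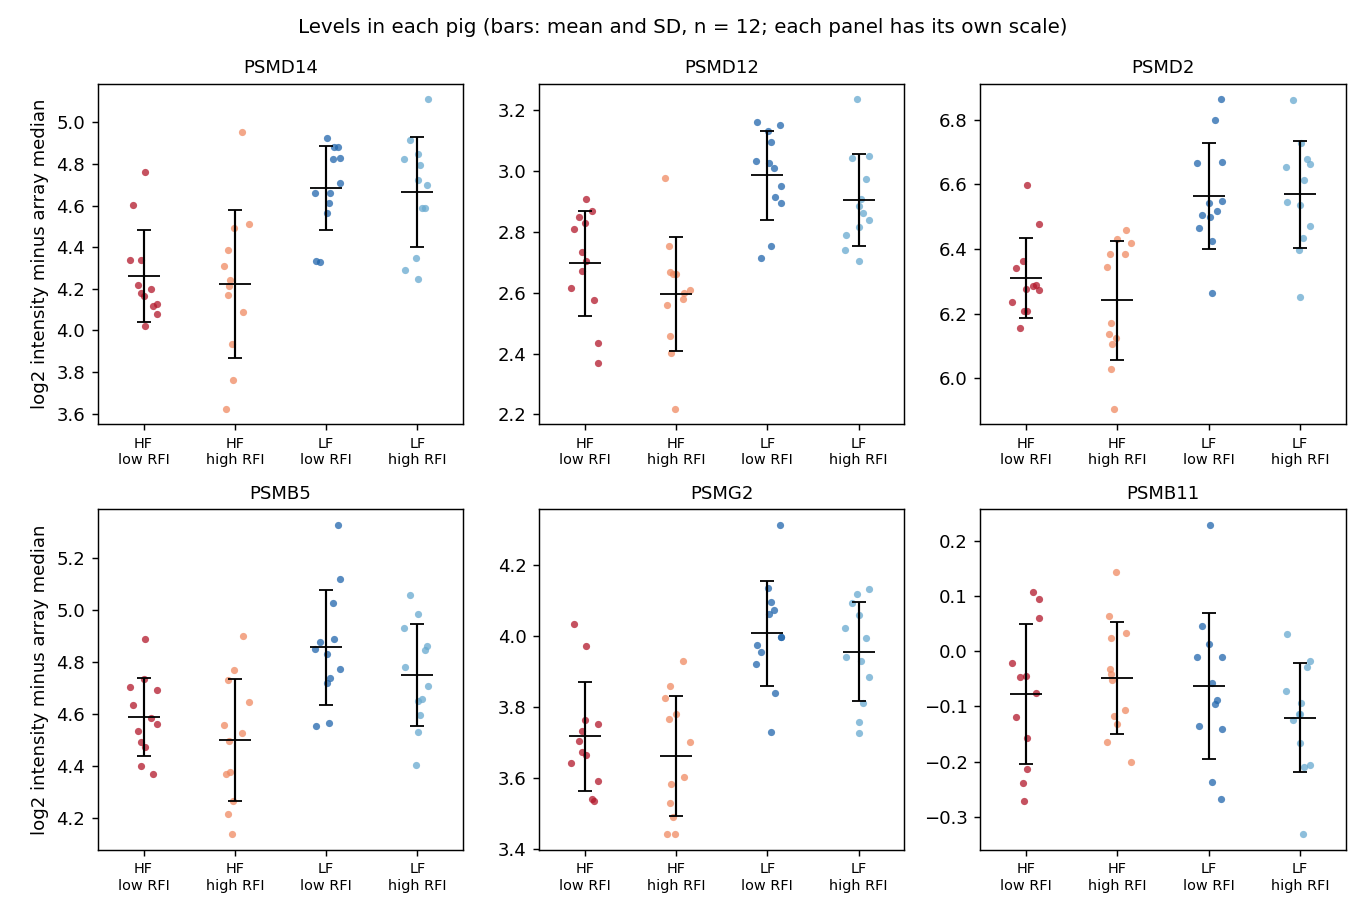
Level of 6 genes in each pig (y axis, log2 intensity minus the array median, with a scale of its own in each panel) by diet and line, with the group mean and SD (n = 12). PSMD14, PSMD12, PSMD2, PSMB5 and PSMG2 have lower means in both HF groups than in both LF groups, and PSMB11 stays between -0.33 and 0.23 in all groups.

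The cap subunits that were not called also had negative differences. PSMD4, a ubiquitin receptor of the base, was at -0.12 (BH p = 0.023) and PSMD13 of the lid at -0.12 (BH p = 0.00836), both past the p thresholds and short of the fold threshold. PSMD7, the partner of PSMD14, was at -0.13 with a raw p of 0.0103. The 1 probe of PSMD3 had the smallest difference of the cap genes, at -0.06 (BH p = 0.373). Its mean level of 0.04 lay near the array median. Whether it reads the strand of the PSMD3 transcript was not tested, so its value may not describe PSMD3.

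In the ATPase ring, 3 of 6 genes were called lower (18.3% of all genes were), and differences in share between the rings and the lid were not tested. PSMC2 had levels from 3.56 to 4.42 (median 3.99) in HF pigs and from 3.71 to 4.69 (median 4.19) in LF pigs, a difference of -0.23 (SE 0.06, BH p = 0.00307). PSMC4 differed by -0.20 (SE 0.05, BH p = 0.00267) and PSMC1 by -0.17 (SE 0.05, BH p = 0.0117). PSMC3, PSMC6 and PSMC5 were at -0.11, -0.11 and -0.10, with BH p of 0.0883, 0.108 and 0.251.

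Of the assembly factors, the 4 PSMG chaperones of the core were called lower. Neither of the 2 cap chaperones tested among the members was called on its brightest probe, but the call for PSMD10 depended on the probe. PSMG2 pairs with PSMG1 to guide the alpha ring. PSMG2 had levels from 3.44 to 4.03 (median 3.69) in HF pigs and from 3.73 to 4.31 (median 3.99) in LF pigs. Its difference was -0.29 (SE 0.05, BH p = 5.88e-06), the lowest BH p among the members, and 14 HF pigs lay below every LF pig. PSMG1 went from 4.57 to 5.13 (median 4.82) in HF pigs and from 4.80 to 5.29 (median 5.05) in LF pigs, a difference of -0.23 (SE 0.04, BH p = 0.000127). The other pair, PSMG3 and PSMG4, differed by -0.20 (SE 0.06, BH p = 0.0104) and -0.17 (SE 0.05, BH p = 0.00792).

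The cap chaperones PSMD10 and PSMD9 were at -0.11 (BH p = 0.0389) and -0.09 (BH p = 0.071). The dimmer probe of PSMD10 was called lower, at -0.18 (BH p = 0.000671), and so was the mean of its probes. PAAF1, a cap chaperone outside the gene name rule, was at -0.14 (SE 0.10, BH p = 0.321) and was not called, and POMP, a core chaperone also outside the rule, was not analysed here. PSMD5, the cap chaperone that stands beside PSMD10 and PSMD9 among the members, was well above background on 8 of 48 arrays, and so was not tested. PSMF1, an inhibitor of the core in the test tube that also binds it in cells, was above background on 29 arrays. It had a difference of -0.03 (BH p = 0.585), which became positive with spike-in centring (0.08), with the 75th percentile as the centre (0.07) and with quantile normalization (0.000565).

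Among the pigs of 1 group, the members varied together. After the group means were taken out, the median Pearson correlation over 48 pigs was 0.35 for the 666 pairs of members and 0.02 for all pairs of the 9018 genes. These correlations are a description, since all genes of a pig share 1 array and its scaling. Pairs within the core (median 0.44), within the cap (0.43) and between core and cap (0.42) were alike, and pairs of assembly genes had a median of 0.24. PSMB5 with PSMD2 had the highest correlation, at 0.87. PSMB5 and PSMB4 followed the mean of the other members most closely (0.82 each), whereas PSMF1 (0.13) and PSMB11 (-0.09) did so least.

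The diet difference was present in both lines. In the low RFI line the median over the members was -0.16 and 14 of 37 were called lower, and in the high RFI line the median was -0.18 and 19 were called lower. Over all genes, 9.88% were called lower in the low RFI line and 12.7% in the high RFI line. In 36 of 37 members the difference was negative in both lines, and PSMB11 was the exception (-0.01 and 0.07). The diet by line interaction was called in 0 members and in 0% of all genes. None of the 37 had a raw interaction p under 0.05 with limma, nor with the two-way ANOVA, against 2.1% of all genes with limma. PSMA6 had the lowest raw interaction p, 0.213, with -0.09 in low RFI pigs and -0.18 in high RFI pigs. The counts of the 2 lines are thus not shown to differ.

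**Figure D4:**
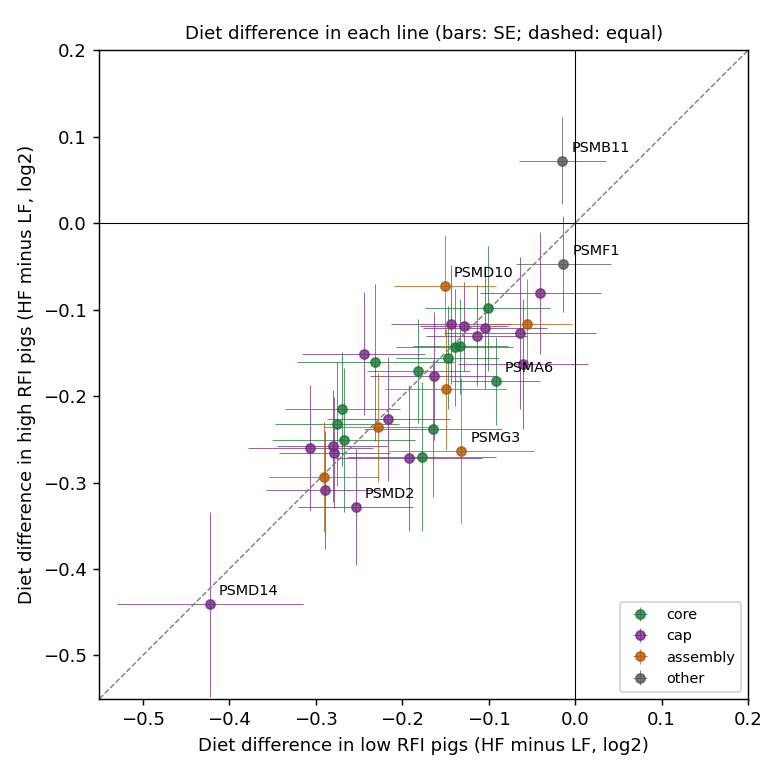
Diet difference (HF minus LF, log2 intensity) of the 37 proteasome genes in low RFI pigs (x axis) and high RFI pigs (y axis), with standard errors as bars and the dashed line where both are equal. The points lie along that line from PSMD14 at -0.42 and -0.44 to PSMF1 at -0.01 and -0.05, and PSMB11 is the 1 gene above 0 in the high RFI line.

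Line was called for 0 of the 37 genes with limma and with the two-way ANOVA, against 3.09% of all genes. Most differences were small and positive, that is, higher in low RFI pigs. This held for 32 of 37 members, with a median of 0.05, whereas 52.2% of all genes were higher in low RFI pigs, with a median of 0.00. All 7 beta ring genes, all 6 ATPases and all 8 lid genes were on this side, and 3 of 6 assembly genes. A raw p under 0.05 was reached by 6 of the 37 members with limma and also with the two-way ANOVA, against 11.7% of all genes with limma. PSMD9 had the lowest, with a difference of 0.11 (SE 0.04, raw p = 0.00532, BH p = 0.12). The others were PSMC3, PSMA4, PSMB6, PSMC2 and PSMB1, at 0.10 to 0.14. Without the 3 least correlated arrays, PSMC2 was called, at 0.18 (BH p = 0.0486).

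For genes with more than 1 tested probe, a diet difference was estimated from each probe. Of the 94 probes 92 were tested, 91 had a negative diet difference and 55 were called lower, while 14.5% of all tested probes were. Of 21 genes with more than 1 tested probe, 21 had only negative probes, and 7 had every probe called. PSMD14 had 3 such probes, at -0.43, -0.46 and -0.44, of which 2 hold the same sequence. Those 2 correlated at 0.94 over the 48 pigs, and their difference had an SD of 0.12 between pigs. The overlapping PSMD12 probes gave -0.30 and -0.26. In 13 of the 21 genes the brightest probe had the largest difference in size, and in 8 a dimmer probe had. The brightest and the dimmer probe were farthest apart in PSMA5 (-0.24 and -0.05) and PSMC2 (-0.23 and -0.08). These 2 dimmer probes had mean levels below the array median, at -0.71 for PSMA5 and -0.87 for PSMC2. Whether they read the same strand as the brightest probes was not tested, so they may not measure the same transcript. In PSMD10 the dimmer probe had the larger difference (-0.11 and -0.18).

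For line, 2 of the 92 probes were called (3.37% of all tested probes were), and both went against the brightest probe of their gene. The PSMD1 probe that ends in the capitals shown above was higher in low RFI pigs, by 0.83 (SE 0.16, BH p = 0.00115). Its levels ran from 2.58 through a median of 3.02 to 3.57 in low RFI pigs, and from 0.31 through 2.40 to 3.18 in high RFI pigs. The 5 lowest high RFI pigs lay between 0.31 and 1.06 and the next at 2.01, while 17 of 24 high RFI pigs were below every low RFI pig. The other 7 PSMD1 probes had line differences from -0.05 to 0.15, and the probe that begins with the same 25 bases was at 0.15 (SE 0.05, BH p = 0.121).

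The second was a PSMA4 probe at -0.22 (SE 0.06, BH p = 0.0133), where the other 2 PSMA4 probes were at 0.10 and 0.12. In diet the 3 PSMA4 probes were alike, at -0.18, -0.19 and -0.14. These probes were singled out after their values were seen.

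**Figure D5:**
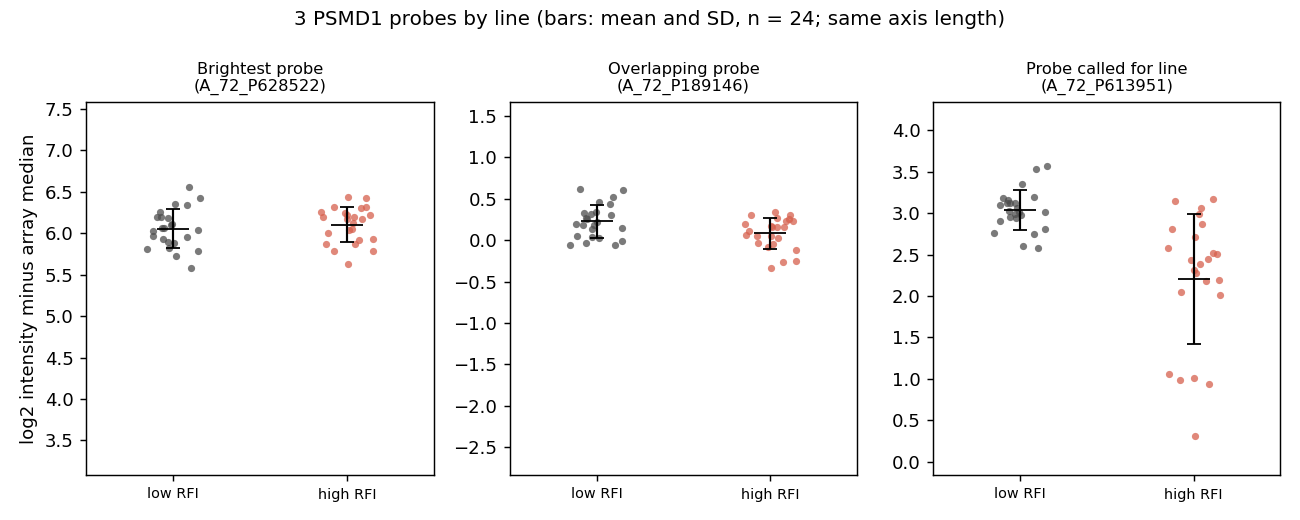
Level of 3 PSMD1 probes in each pig (y axis, log2 intensity minus the array median, axes of equal length) by line, with the mean and SD (n = 24). The line difference is -0.05 for the brightest probe and 0.15 for the overlapping probe, neither of them called. The probe called for line falls as low as 0.31 in high RFI pigs.

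Other genes of the pathway were taken from lists of further subunits and assembly factors, activators, immune subunits, bound enzymes, shuttles and regulators. Of 35 such genes 31 were measured and 30 tested, with 11 called lower and 1 higher. Over all 9018 genes 18.3% were called lower and 5.98% higher, so that the share called lower was larger in these lists. Their median diet difference of -0.04 was close to that of all genes. Among the activators, PSME4 differed by -0.28 (SE 0.06, BH p = 0.000266), and PSME1, a subunit of the interferon-inducible activator and the gene called higher, by 0.14 (SE 0.05, BH p = 0.0307). UCHL5, a deubiquitinase on the cap, fell from 4.28 ± 0.15 in LF pigs to 4.02 ± 0.13 in HF pigs (SD, n = 24 each), a difference of -0.25 (SE 0.04).

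Shuttles and the segregase VCP with its partners, which bring ubiquitin-tagged proteins to the cap, had 5 of 7 genes called lower (18.3% of all genes were). NPLOC4, a partner of VCP, was at -0.25 (SE 0.06) and RAD23B, a shuttle, at -0.23 (SE 0.06). The immune subunits PSMB8, PSMB9 and PSMB10 had positive differences of 0.18, 0.14 and 0.09, none of which was called (BH p of 0.377, 0.321 and 0.383).

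Of 6 regulators 1 was called lower, a count near the share of 18.3% of all genes. The median of the list and that of all genes were both -0.05. The called regulator was MAFG, a small Maf protein that pairs with NFE2-like factors, at -0.25 (SE 0.08, BH p = 0.0155). NFE2L1, the transcription factor known to induce proteasome genes, was at -0.10 (SE 0.06, BH p = 0.204), with levels of 3.31 ± 0.21 in HF pigs and 3.41 ± 0.20 in LF pigs (SD, n = 24 each). Its relative NFE2L2 was at -0.01 (SE 0.05, BH p = 0.885).

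Markers of cell types were read beside these genes, and over all 9018 genes 5.98% were called higher and 18.3% lower. Of 8 macrophage markers 6 were called higher in HF pigs (median of the list 0.59), and the mean level of the list ranged from 1.93 to 4.18 in HF pigs and from 1.68 to 3.91 in LF pigs. Of 8 adipocyte markers, all above background on every array, 6 had negative differences (median of the list -0.13) and 2 were called lower, LEP and CIDEC. These counts were near the shares of all genes, of which 63.5% had negative differences and 18.3% were called lower. The mean level of the adipocyte list ranged from 8.66 to 9.14 in HF pigs and from 8.75 to 9.33 in LF pigs. NKG7 was the 1 of 4 T and NK cell markers called higher. The 6 fibroblast markers had positive differences with a median of 0.21, and none was called. Their mean level ranged from 6.41 to 7.75 in HF pigs and from 5.87 to 7.5 in LF pigs. No endothelial, erythrocyte, muscle, adrenal or B cell marker was called for diet. Of 3 kidney markers measured, NPHS1 and SLC12A1 were not well above background and AQP2 was called lower. The part of these marker differences in the proteasome differences was not tested.

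Slides did not separate the diets, since each of the 6 slides held 2 arrays of every group. Within a slide, the diet difference in the mean over core genes ranged from -0.29 to -0.03, over cap genes from -0.29 to -0.06 and over assembly genes from -0.24 to -0.12. On the 2 scan days it was between -0.21 and -0.16 for the core, -0.22 and -0.18 for the cap, and -0.19 and -0.17 for the assembly genes. With slide or scan day as a block, the 24 genes called for diet were the same.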

How the data were processed

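RNA from the perirenal fat of 48 pigs was measured on one-colour (Cy3) porcine arrays with 60305 distinct probes. The spot intensity values were made by the authors with Feature Extraction 10.7.3.1 and deposited without scaling between arrays. The log2 values of 38142 probes were filtered and centred on the array median by the authors, per the labels in R 2.10.0. As the names of that deposited table disagree with its values (2 entries had the name of the spot they match), it served as an alternative, each entry matched to its spot by value within 1e-06. No genome coordinates were used here.

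Levels were log2 of the median signal minus the array median over non-control probes. Groups came from the sample labels. Diet, line and interaction were fitted with limma 3.58.1 in R 4.3.3 over all 43355 tested probes, with calls at the thresholds of the study's methods. In simulated data of this design, limma recovered 41 of 100 probes changed by 0.2 and 87 of 100 changed by 0.4 log2, with 14 unchanged probes called. No other probes were changed there and the noise was independent between probes, whereas 14.5% of tested probes were called lower in the pigs. The recovered shares therefore need not hold for these data. Genes were read with Python 3.11.15. The members and lists were chosen with earlier results of these data known.

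Genes were named by a rule: in the alpha ring, beta ring, ATPases, other cap subunits and assembly factors the 3 called members with the largest diet difference, every member with a positive difference, every member not called, the 5 called pathway genes with the largest differences, NFE2L1 and NFE2L2. Other members and pathway genes that are named, such as PSMD1, PSMG4, PSME1 and the immune subunits, were added after their values were seen. The alternatives were the deposited values, centring on the 75th percentile of the processed signal or on spike-in probes, quantile normalization with and without normexp (offset of 50), no filter, a filter over all 48 arrays, the two-way ANOVA of the methods, a block (slide, scan day or replicate number), array weights, no interaction term, BH p under 0.05, fold over 1.5, and the mean of a gene's probes. Leaving out 3 arrays was added after seeing the data. A planned search of promoters for motifs was not run.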

Additional observations from a re-analysis of the deposited data

How the results depend on the processing

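The count of proteasome genes called lower in HF pigs was 24 and stayed between 21 and 26 under 13 of 17 alternatives. It was 14 with quantile normalization, also after normexp, 8 with spike-in centring and 0 with a fold over 1.5. The 14 genes called with quantile normalization and the 8 with spike-in centring were all among the 24. No alternative called a proteasome gene higher in HF pigs. In low RFI pigs the 14 calls became 0 with spike-in centring and 0 with a fold over 1.5. In high RFI pigs the 19 calls became 12 with the 75th percentile, 11 with normexp and quantile normalization, 9 with quantile normalization, 5 with spike-in centring and 0 with a fold over 1.5. The line count rose from 0 to 1 without the 3 least correlated arrays, and the interaction count was 0 under every alternative that could give it. The 11 other pathway genes called lower became 2 with spike-in centring and 0 with a fold over 1.5. With spike-in centring, which shifts all genes by 0.11 by construction, the median diet difference was -0.079 for core, -0.091 for cap and -0.077 for assembly genes, and the shift exceeded 1 SD between pigs only for the assembly genes. For single genes, 550 of 627 values kept direction and call, and 7 turned positive: with spike-in centring PSMA3 (0.00724), PSMC5 (0.0115), PSMD3 (0.0467), PSMD9 (0.0206) and PSMF1 (0.0766), and for PSMF1 also with the 75th percentile (0.0683) and quantile normalization (0.000565). Beyond the spike-in shift, the cause was not tested.

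Replicate numbers are shared between groups in the labels, and each slide held 2 numbers of every group, so that number and slide go together. Same-numbered pigs had correlations of their deviations from -0.29 to 0.53 (median 0.12, against -0.01 for different numbers), and 16 of 48 correlated best with their own number. Since not every pair was above 0.1, the numbers were not taken as pairs. With the replicate block, 24 proteasome genes were called for diet, 21 within the high RFI line and 16 within the low RFI line, 0 for line and 0 for interaction, and the block ended no call for diet. It left 11 other pathway genes called lower and medians of -0.19, -0.20 and -0.18 for core, cap and assembly genes. Signal over background limits PSMD5 and PSMF1. PSMA3 and PSMD3 each rest on 1 probe, with mean levels of -0.80 and 0.04, and the strand that these probes read was not tested.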
